A study of Mus musculus with 3 samples.

Results

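Liver RNA of mice with diet-induced NASH (nonalcoholic steatohepatitis, fatty liver with inflammation) was compared with and without thyroid hormone treatment. All 3 groups of the series were male C57BL/6 mice, 10 weeks old at the start; the treatment text gives the substrain as C57BL/6J, no genetic change is named for any group, and each group is 1 library of poly(A) RNA from whole liver. The NASH library was made from mice fed western diet plus liquid fructose with no hormone, and its source label names 24 weeks. The TH-treated NASH library was made from animals given that diet for 16 weeks, which then drank T3 (35 ng/g) and T4 (7 ng/g) in water with 15% fructose for 8 weeks. The control library came from untreated mice on normal chow, whose time on the diet is not separately stated. The labels do not say how many animals a library holds or whether RNA was pooled. They give no hormone level for the blood of any group. Diet, fructose water and hormone are known only as these labels give them.

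The comparison asks which liver transcripts differ between the NASH libraries with and without hormone treatment. It takes in the 11734 of 35275 listed genes that reached 1 FPKM in either library. FPKM counts sequenced fragments for each kilobase of a gene, scaled to the size of the library. A gene's log2 ratio is log2 of (FPKM + 1) in TH-treated NASH over (FPKM + 1) in NASH, a scale that understates the change of low genes. The other 23541 genes lay under 1 FPKM in both libraries, 15615 of them with no fragment in either. Within the profile, 7157 genes are called flat because NASH lay within 1.2-fold of control on the same scale. With 1 library per group nothing here has a replicate check, no test between groups was possible, and "higher" and "lower" describe these libraries. Folds compare the FPKM of TH-treated NASH with that of NASH, and the range in brackets behind each is an exact 95% interval for counting error alone. Where 3 values follow a gene without library names, control comes first, then NASH, then TH-treated NASH.

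Thyroid hormone enters hepatocytes through membrane transporters, and the deiodinase Dio1 converts T4 into T3, the more active form. T3 binds nuclear receptors, mainly the product of Thrb in hepatocytes, which sit on target genes and switch coactivators for corepressors when the hormone is bound. In liver the hormone is known for raising cholesterol turnover, fatty acid synthesis and burning, and mitochondrial activity, and for shaping the pituitary release of growth hormone, whose timing sets the sex-biased genes of mouse liver.

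The libraries held 47009255 fragments on genes in NASH and 38303410 in TH-treated NASH, against 54576236 in control. Hepatocyte markers dominated all 3, with summed levels of 80102 FPKM in control against 61029 in NASH and 57691 with treatment. The lower sum with treatment was not shared by most markers. Of 19 compared, 5 stood at least 1.5-fold above NASH and 3 below it, with a median log2 ratio of 0.30. The Y-linked genes that mark male tissue were present in all 3 libraries. Genes of the mitochondrial genome took 4.50% of fragments in control against 4.96% in NASH and 6.72% with treatment. Haemoglobin genes, which stand for red blood cells in the tissue, summed to 255 FPKM in control against 347 in NASH and 1735 with treatment. In bulk tissue, fewer cells of a type and less RNA per cell cannot be told apart.

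Across the 11734 genes the profile was centred near 0 and close to symmetric. The median log2 ratio was −0.03, the middle 50% of genes lay between −0.28 and 0.23, and 50.8% of genes lay within 1.2-fold of NASH. At least 2-fold higher stood 320 genes (2.73%), and at least 2-fold lower stood 325 (2.77%). At 1.5-fold the counts were 996 higher (8.49%) and 1060 lower (9.03%), which are the background for the gene lists below. The far tail was longer on the higher side, with 81 genes above against 48 below at 4-fold, 37 against 16 at 8-fold, and 14 against 7 at 16-fold. With all libraries scaled to equal FPKM totals, 39.7% of the genes past 2-fold were higher, against 49.6% as deposited, and the median of all genes shifted by −0.09. Just inside the 2-fold line on the higher side were Nrbp2 (18.6, 14.7 and 30.4 FPKM) and Dynll1 (10.4, 9.53 and 20.1 FPKM), and just outside were Fbxo31 (19.02, 12.9 and 26.7 FPKM) and Zfp13 (0.403, 0.547 and 2.09 FPKM). On the lower side Ncoa4 (17.4, 19.8 and 9.41 FPKM) and Cpxm1 (0.403, 2.48 and 0.739 FPKM) lay just inside, and Mmp13 (0.158, 1.31 and 0.156 FPKM) and Entpd2 (0.729, 2.13 and 0.567 FPKM) just outside.

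**Figure D1:**
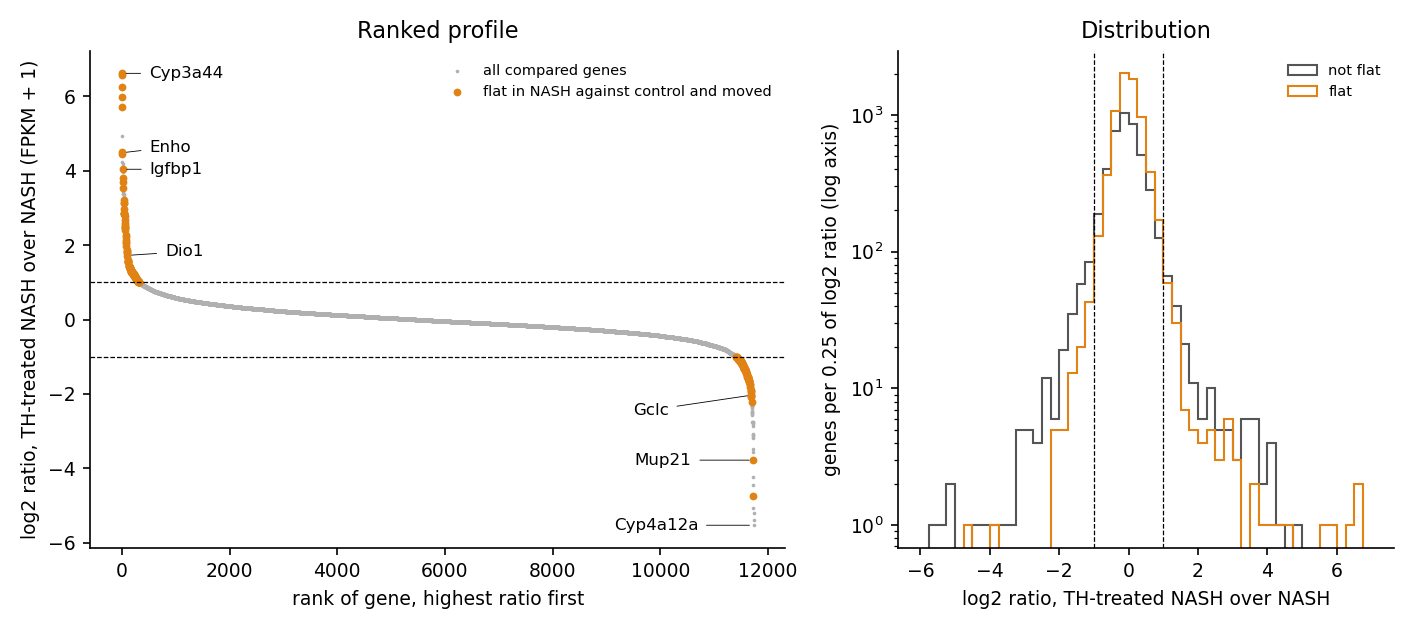
Log2 ratio of TH-treated NASH over NASH for the 11734 compared genes, ranked from highest to lowest (left, 1 point per gene, flat genes past 2-fold in orange) and as counts of genes per step of ratio on a log axis (right, flat genes in orange, the others in grey); dashed lines mark 2-fold. Most genes lie close to 0, the orange genes reach both ends, and the highest flat gene, Cyp3a44, stands at a log2 ratio of 6.62 while the lowest gene of all, Cyp4a12a, stands at −5.53.

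Genes of high level passed 2-fold more often than scarce ones. Of 61 genes with a mean above 1000 FPKM over both libraries, 12 were at least 2-fold higher and 2 lower (19.7% and 3.28%), whereas among 2194 genes with a mean under 2 FPKM 42 were higher and 68 lower (1.91% and 3.10%). The +1 in the ratio holds scarce genes near 0. Summed over all listed genes, gains came to 133656 FPKM and losses to 92067 FPKM, and the 10 largest gains made up 30.1% of the former. These gains included the serum amyloid genes Saa2 (1176, 263 and 4817 FPKM) and Saa1 (1559.9, 440.1 and 4493 FPKM), secreted acute phase proteins whose near-identical copies can share fragments. They also included Mup17 (290.1, 386 and 6198 FPKM) and Mup15 (573, 429 and 3798 FPKM), urinary pheromone carriers, as well as haptoglobin Hp (4144, 3353 and 8143 FPKM) and haemopexin Hpx (3555, 2977 and 7243 FPKM), which bind free haemoglobin and haem. The 10 largest losses made up 43.2% of all losses. Among them, Mup20, the male pheromone darcin, went from 10157 FPKM in NASH to 1177 with treatment, and Scd1, the stearoyl-CoA desaturase of lipogenesis, from 6747 FPKM in NASH to 2514 with treatment. Albumin, Alb, stood at 32685 FPKM in control against 20265 in NASH and 14907 with treatment.

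The ratio also varied with gene length. Among the 2347 shortest genes, those under 1504 bases, the median was 0.15 with 168 genes at least 2-fold higher and 114 lower. Among the 2348 longest, from 4633 bases, it was −0.11 with 20 higher and 36 lower. Annotated pseudogenes, many of them short copies that can share fragments with their parent genes, had 35 of 242 at least 2-fold higher and 8 lower, with a median of 0.46. The part that fragment length or RNA quality had in this slope was not tested.

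Flat genes are those at a like level in NASH and control, so those past 2-fold in the treated library stand apart from both. Of 7157 flat genes, 133 stood 2-fold or more above NASH with treatment (1.86%) and 88 stood 2-fold or more below it (1.23%). Genes that were not flat passed 2-fold more often, 187 of 4577 on the higher side (4.09%) and 237 on the lower side (5.18%); both rest on the same NASH library. Flat genes were 60.99% of all compared genes and 34.3% of those past 2-fold. At 4-fold, 32 flat genes were higher and 7 lower. The share of higher genes among the 221 was 60.2% as deposited, 48.9% with equal FPKM totals and 46.6% after centring by gene length. In 49 of the 133 higher genes NASH lay under 1 FPKM, so that their flatness means near absence in both untreated libraries, and 12 had no NASH fragment. On this scale a gene under 1 FPKM in NASH can pass 2-fold only as higher, so the rule itself favours the higher side. With 1 FPKM required in control and NASH, 81 flat genes were higher and 88 lower. For 84 of the 221 the counting interval of NASH over control lay wholly inside 1.2-fold. The higher group was short, with a median length of 1327 bases against 2370 in the lower group and 2854 over all compared genes.

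Among flat genes at 1 FPKM or more in NASH, Igfbp1 stood furthest on the higher side outside the Mup genes. It encodes a secreted carrier of insulin-like growth factors that hepatocytes make in fasting and that insulin represses. Igfbp1 (ENSMUSG00000020429, chromosome 11 from 7197782 to 7202546 in the deposited table) stood at 14.7 FPKM in control against 14.4 in NASH and 252 with treatment, 17.5-fold higher (16.5 to 18.7). As a flat gene past 2-fold, Igfbp1 was bound to stand apart from both untreated libraries in the treated one. Its promoter is shown because it holds the insulin response element through which FOXO transcription factors drive the gene; capitals mark CAAAANA on either strand, in the 200 bases before the start site (chr11:7197587-7197786, plus strand, GRCm38.p6, RefSeq).
Igfbp1: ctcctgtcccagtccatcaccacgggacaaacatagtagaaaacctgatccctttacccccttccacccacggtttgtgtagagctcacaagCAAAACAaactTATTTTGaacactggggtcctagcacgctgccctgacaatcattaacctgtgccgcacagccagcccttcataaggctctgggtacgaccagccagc
The 2 matches lie on opposite strands. A match is a description of the letters only. CAAAANA occurred in 13.2% of all RefSeq promoters in the same window, and 2 or more matches in 1.78%. Foxo1, a gene for such a factor, overlaps a predicted gene, was also flat and stood at 6.39 FPKM in control against 7.82 in NASH and 13.8 with treatment, 1.77-fold higher (1.67 to 1.87), while the growth factor gene Igf1 was not flat (71.3, 56.9 and 117 FPKM). In the insulin and IGF list as a whole, 5 of 19 compared members stood higher and 3 lower (median log2 ratio 0.07) and the median turned to −0.04 with equal FPKM totals. G6pc, which releases glucose, and Pck1, which commits carbon to gluconeogenesis, stood at 98.3, 67.4 and 151 FPKM and 1273, 552 and 994 FPKM.

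The highest log2 ratio among flat genes was that of Cyp3a44, 1 of a block of Cyp3a genes, which encode drug- and steroid-oxidising cytochromes P450 that adult male liver hardly expresses. Cyp3a44 (ENSMUSG00000054417, chromosome 5 from 145773983 to 145805874) had no fragment in control or NASH and stood at 97.4 FPKM in TH-treated NASH, at least 2995-fold higher against a floor of 3 fragments, while the exact 95% interval starts lower, at 2435-fold. Cyp3a16 had no fragment in control and 1 in NASH, and stood at 51.9 FPKM with treatment. Cyp3a41a and Cyp3a41b were at 0 in both untreated libraries and at 7.85 and 2.02 FPKM in the treated one. These 4 are neighbours in a stretch of 370 kb and can share fragments, so the split among them is uncertain. Cyp3a11, the main Cyp3a of male liver in the same cluster, lay on the other side at 1252 FPKM in control against 1006 in NASH and 246 with treatment, 4.08-fold lower (4.03 to 4.14). Promoters of 3 of the silent genes and of Cyp3a11 are set side by side to show how alike the genes with opposite values are; capitals mark bases that differ from or are missing in Cyp3a44 in a pairwise alignment, over up to 200 bases of Cyp3a44 before its start site (all minus strand, chr5:145805875-145806074, chr5:145469728-145469927, chr5:145720137-145720336 and chr5:145879860-145880066, GRCm38.p6, RefSeq).
Cyp3a44: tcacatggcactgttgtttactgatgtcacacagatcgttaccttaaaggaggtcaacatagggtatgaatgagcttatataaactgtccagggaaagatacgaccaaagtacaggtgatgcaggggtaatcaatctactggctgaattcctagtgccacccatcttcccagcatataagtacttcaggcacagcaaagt
Cyp3a16: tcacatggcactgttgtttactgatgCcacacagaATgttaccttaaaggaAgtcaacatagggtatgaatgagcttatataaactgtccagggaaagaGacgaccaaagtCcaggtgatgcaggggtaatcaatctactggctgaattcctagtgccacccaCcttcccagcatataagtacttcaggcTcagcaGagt
Cyp3a41a: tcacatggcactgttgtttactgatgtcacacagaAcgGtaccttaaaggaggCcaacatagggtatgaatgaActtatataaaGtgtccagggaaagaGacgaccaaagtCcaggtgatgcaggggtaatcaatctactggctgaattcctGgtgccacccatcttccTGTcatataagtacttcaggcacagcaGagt
Cyp3a11: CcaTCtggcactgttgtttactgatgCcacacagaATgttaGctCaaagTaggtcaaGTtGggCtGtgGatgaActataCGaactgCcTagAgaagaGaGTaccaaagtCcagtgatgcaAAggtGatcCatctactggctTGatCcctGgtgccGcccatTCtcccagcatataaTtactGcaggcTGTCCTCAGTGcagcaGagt
Cyp3a16 matched Cyp3a44 at 95.5% of aligned columns and Cyp3a41a at 94%, whereas Cyp3a11 matched at 74.8%. Columns with a gap were counted as differing. The sequence AGGTCA, the half-site bound by many nuclear receptors, stood once in the Cyp3a44 window and once in that of Cyp3a11, and not in the other 2; it occurred in 11.2% of all RefSeq promoters in this window.

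Major urinary protein genes came next, and they stood on both sides. These lipocalins carry pheromones into urine, and their copies on chromosome 4 can share fragments, so single-gene levels are uncertain. Mup9 (ENSMUSG00000078686, chromosome 4 from 60418046 to 60421952) stood at 11.6 FPKM in control against 9.59 in NASH and 1009 with treatment, 105-fold higher (95.4 to 116). Mup18 stood at 4.06 FPKM in control against 3.89 in NASH and 309.98 with treatment, Mup13 at 0.261, 0.259 and 95.8 FPKM in the same order, and Mup2 and Mup8 at 7.89, 8.22 and 107 FPKM and 2.86, 3.43 and 56.5 FPKM; all 5 were flat. In contrast, Mup21, flat at 368 FPKM in control against 339.5 in NASH and 23.8 with treatment, was 14.3-fold lower (13.2 to 15.5), and the not flat Mup20 was 8.63-fold lower (8.54 to 8.71). Mup3, one of the most abundant copies, stood at 9205, 6719 and 4462 FPKM. Of 19 compared Mup genes, 15 were at least 1.5-fold higher and 3 lower, yet all 51 Mup genes and pseudogenes together came to 20060 FPKM in control against 19359 in NASH and 22323 with treatment. Promoters of 2 of the higher genes and of Mup21 follow, with capitals for bases that differ from Mup9 (minus strand, chr4:60421953-60422152, chr4:61674095-61674282 and chr4:62150842-62150978, GRCm38.p6, RefSeq).
Mup9: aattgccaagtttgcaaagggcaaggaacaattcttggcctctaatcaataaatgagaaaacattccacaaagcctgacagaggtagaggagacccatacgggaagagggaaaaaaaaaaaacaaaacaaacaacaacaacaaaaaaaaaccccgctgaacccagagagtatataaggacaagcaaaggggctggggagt
Mup18: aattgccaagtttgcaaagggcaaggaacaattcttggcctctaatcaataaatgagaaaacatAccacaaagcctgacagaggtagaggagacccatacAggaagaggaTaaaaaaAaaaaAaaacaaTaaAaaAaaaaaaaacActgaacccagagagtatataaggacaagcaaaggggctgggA
Mup21: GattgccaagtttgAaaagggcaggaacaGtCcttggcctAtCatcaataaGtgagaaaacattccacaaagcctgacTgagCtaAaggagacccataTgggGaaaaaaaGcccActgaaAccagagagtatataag
Mup18 matched Mup9 at 90.4% of aligned columns and Mup21 matched at 68.9%. Columns with a gap were counted as differing, and bases of Mup9 that a gene lacks carry no mark. Mup21 had 15 marked bases among 137 shown, over 177 aligned columns. Mup18 had 10 marked bases among 188 shown, over 197 aligned columns.

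Flat conjugation and steroid enzymes stood on both sides, more of them lower. Of 19 flat members of the list of glucuronosyl-, sulfo- and glutathione transferases, 5 were at least 1.5-fold higher and 11 lower, and of 8 flat steroid dehydrogenases and reductases 1 was higher and 2 lower. The genes described next are from the higher side, and Papss2, Sult1a1 and Slc22a7 were picked after their values were seen. Akr1c18, a reductase that inactivates progesterone, stood at 0.106 FPKM in control against 0 in NASH and 20.9 with treatment and was at least 395-fold higher against the floor, with an exact interval from 321-fold. Ugt2b37, a glucuronosyltransferase with close relatives that share its fragments, stood at 2.30 FPKM in control against 1.99 in NASH and 26.9 with treatment, 13.5-fold higher (11.6 to 15.9). The steroid sulfotransferase genes Sult2a1 and Sult2a2, near copies, stood at 0, 0.0209 and 5.99 FPKM and 0.124, 0.0287 and 6.45 FPKM, the NASH values resting on 1 fragment each. Papss2, which makes the sulfate donor for such enzymes, stood at 41.7, 44.7 and 107 FPKM, and the phenol sulfotransferase Sult1a1 at 193, 180.4 and 427 FPKM. Slc22a7, an organic anion transporter of the hepatocyte membrane, stood at 18.9 FPKM in control against 16.8 in NASH and 129 with treatment, 7.67-fold higher (7.27 to 8.09).

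Flat genes of fat and energy metabolism on the higher side included Pnpla2, the lipase ATGL that opens triglyceride breakdown, at 37.6 FPKM in control against 33.2 in NASH and 83.8 with treatment, 2.52-fold higher (2.43 to 2.62). Plin5, a droplet coat protein that tethers mitochondria, stood at 23.1 FPKM in control against 23.9 in NASH and 53.5 with treatment, 2.24-fold higher (2.13 to 2.36). Idh3a, a subunit of the isocitrate dehydrogenase of the TCA cycle, stood at 13.5, 13.5 and 32.1 FPKM, and Slc25a25, a mitochondrial ATP-Mg carrier, at 50.1, 43.3 and 103 FPKM. In these 4 genes the treated library lay above both untreated ones, which follows from choosing flat genes past 2-fold. Ppp1r3g, which directs phosphatase to glycogen, stood at 1.76 FPKM in control against 1.69 in NASH and 22.8 with treatment, 13.5-fold higher (11.6 to 15.7). St3gal5, the synthase of ganglioside GM3, stood at 56.6, 60.8 and 224 FPKM and Gpcpd1, a glycerophosphocholine phosphodiesterase, at 36.7, 33.9 and 113 FPKM. Fndc5, the precursor of the exercise peptide irisin, lay just inside the flat line at 0.285, 0.539 and 9.91 FPKM. Fkbp5, a chaperone induced by glucocorticoids, stood at 10.2, 9.09 and 22.1 FPKM. Crybb3, a lens crystallin, stood at 0.362 FPKM in control against 0.255 in NASH and 27.6 with treatment, 108-fold higher (67.5 to 187).

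**Figure D2:**
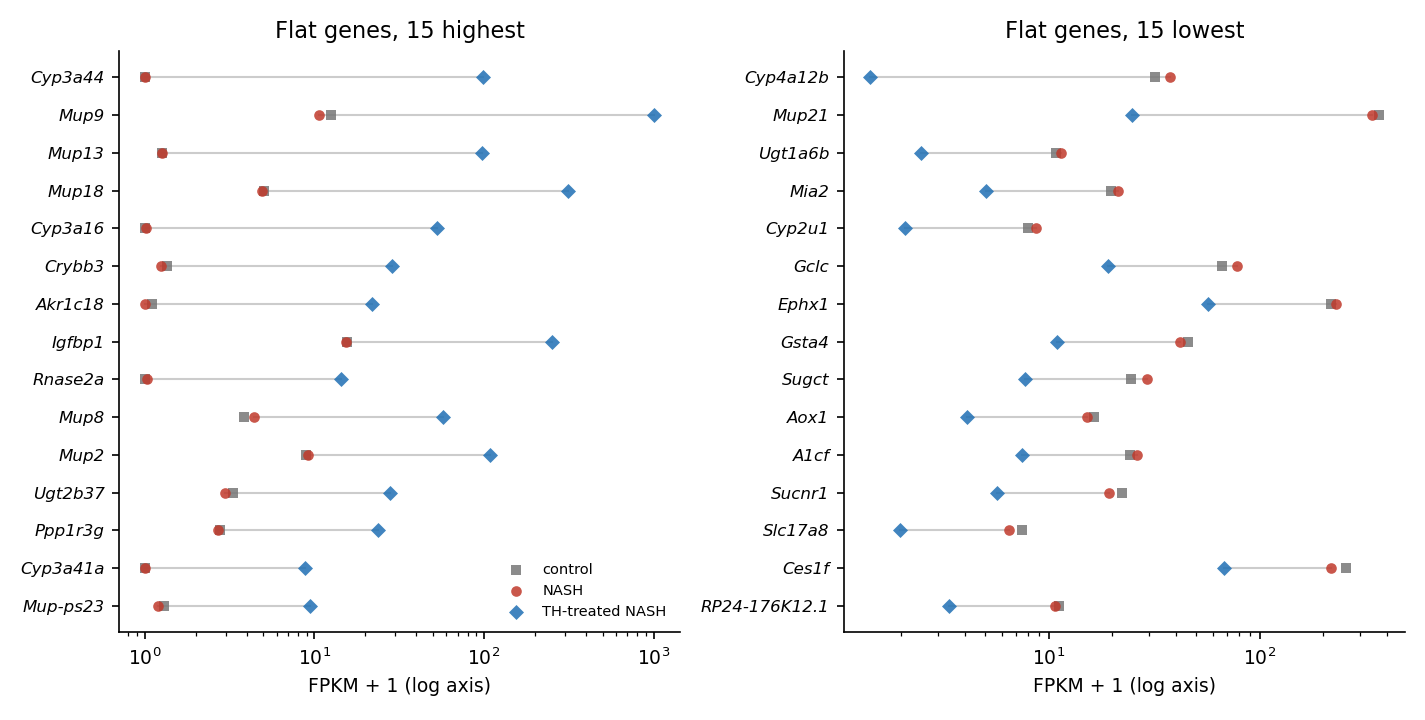
FPKM + 1 on a log axis in control (grey squares), NASH (red circles) and TH-treated NASH (blue diamonds) for the 15 highest (left) and 15 lowest (right) flat genes with a regular symbol and at least 5 FPKM in NASH or TH-treated NASH; 1 library per group, so no error bars. Control and NASH lie within 1.2-fold of each other on this scale in each row because only flat genes were chosen. The treated library stands apart by the same choice, for example 14.7, 14.4 and 252 FPKM for Igfbp1 and 65.3, 76.9 and 18.01 FPKM for Gclc.

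The lowest flat genes were Cyp4a12b and Mup21, and several detoxification enzymes were among the 15 lowest with a regular symbol. Cyp4a12b, a fatty acid hydroxylase of male liver, stood at 30.8 FPKM in control against 36.7 in NASH and 0.414 with treatment, 88.5-fold lower (64.4 to 125), a near copy of Cyp4a12a (137, 104 and 1.26 FPKM, not flat). Gclc, the catalytic subunit of the enzyme that limits glutathione synthesis, stood at 65.3 FPKM in control against 76.9 in NASH and 18.01 with treatment, 4.27-fold lower (4.09 to 4.47). Ephx1, the microsomal epoxide hydrolase, stood at 216 FPKM in control against 229.6 in NASH and 55.7 with treatment, 4.12-fold lower (3.98 to 4.27). In all 3 the treated library lay below both untreated ones, which follows from choosing flat genes past 2-fold.
Gsta4, a glutathione transferase for lipid aldehydes, stood at 44.6, 41.1 and 9.98 FPKM, and Aox1, an aldehyde oxidase, at 15.4, 14.3 and 3.11 FPKM. Cyp2u1, a fatty acid hydroxylase, stood at 6.97, 7.67 and 1.09 FPKM and the carboxylesterase Ces1f at 255, 216 and 66.8 FPKM. Ugt1a6b stood at 9.80, 10.5 and 1.49 FPKM; it shares its last exons with Ugt1a1 and other genes of that locus, so fragments cannot be assigned to it alone.

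Other flat genes on the lower side act in secretion, transport and regulation. Mia2, an exit-site protein that helps large lipoproteins leave the endoplasmic reticulum, stood at 18.7 FPKM in control against 20.4 in NASH and 4.02 with treatment, 5.06-fold lower (4.43 to 5.81). A1cf, a cofactor of apolipoprotein B mRNA editing, stood at 23.4 FPKM in control against 25.2 in NASH and 6.49 with treatment, 3.89-fold lower (3.62 to 4.17). Sucnr1, a receptor for succinate, stood at 21.2, 18.3 and 4.69 FPKM, and Slc17a8, a vesicular glutamate transporter, at 6.48, 5.50 and 0.973 FPKM. Slc2a2, the main glucose transporter of hepatocytes, stood at 93.4, 105 and 48.6 FPKM, 2.16-fold lower (2.09 to 2.24). Ppara, the nuclear receptor that drives fat burning in fasting, stood at 28.1 FPKM in control against 28.9 in NASH and 11.6 with treatment, 2.49-fold lower (2.35 to 2.64). Mid1ip1, a partner of Thrsp in lipogenesis, stood at 27.9, 27.2 and 8.62 FPKM.
Of the 221 flat genes past 2-fold, 61 belong to one of the gene lists described here and 160 to none. Just inside the flat line were Bhlhe41 (1.22, 1.65 and 0.221 FPKM) and Fndc5 above control and Isyna1 (5.91, 4.79 and 12.9 FPKM) and Cldnd2 (0.195, 0 and 1.23 FPKM) below it. Just outside it were Abcc2 (56.6, 68.1 and 33.04 FPKM), Retnlg (0.241, 0.490 and 4.38 FPKM), Tbc1d8 (5.09, 4.07 and 9.99 FPKM) and Gm10563 (0.309, 0.0898 and 1.21 FPKM).

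Members of the gene lists count as higher or lower from 1.5-fold, against a background of 8.49% higher and 9.03% lower over all compared genes and a median of −0.03. For the hormone's own axis, 1 of 20 compared members stood higher and 6 lower (median log2 ratio −0.27). Dio1 was the member on the higher side, at 90.3 FPKM in control against 129 in NASH and 429.7 with treatment. Serpina7, the thyroxine-binding globulin of plasma, stood at 27.5 FPKM in control against 60.8 in NASH and 9.43 with treatment, 6.45-fold lower (6.002 to 6.94). The receptors stood at 5.77, 7.40 and 4.09 FPKM for Thra and 6.43, 6.69 and 4.64 FPKM for Thrb. Among 28 liver genes known as induced by the hormone, 9 stood higher and 2 lower, and the median was 0.29. They included Lpin1, a phosphatidate phosphatase and coactivator, at 13.9 FPKM in control against 8.67 in NASH and 55.2 with treatment, 6.37-fold higher (6.09 to 6.66), and Pdk4, a brake on glucose oxidation, at 1.23, 2.40 and 10.96 FPKM. Thrsp stood at 191, 389.7 and 485 FPKM, Me1 at 84.4, 94.6 and 113 FPKM, Klf9 at 29.9, 23.3 and 15.9 FPKM and Hr at 0.160, 0.577 and 1.30 FPKM; these textbook targets lay within 1.5-fold of NASH on the log2 (FPKM + 1) scale.

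**Figure D3:**
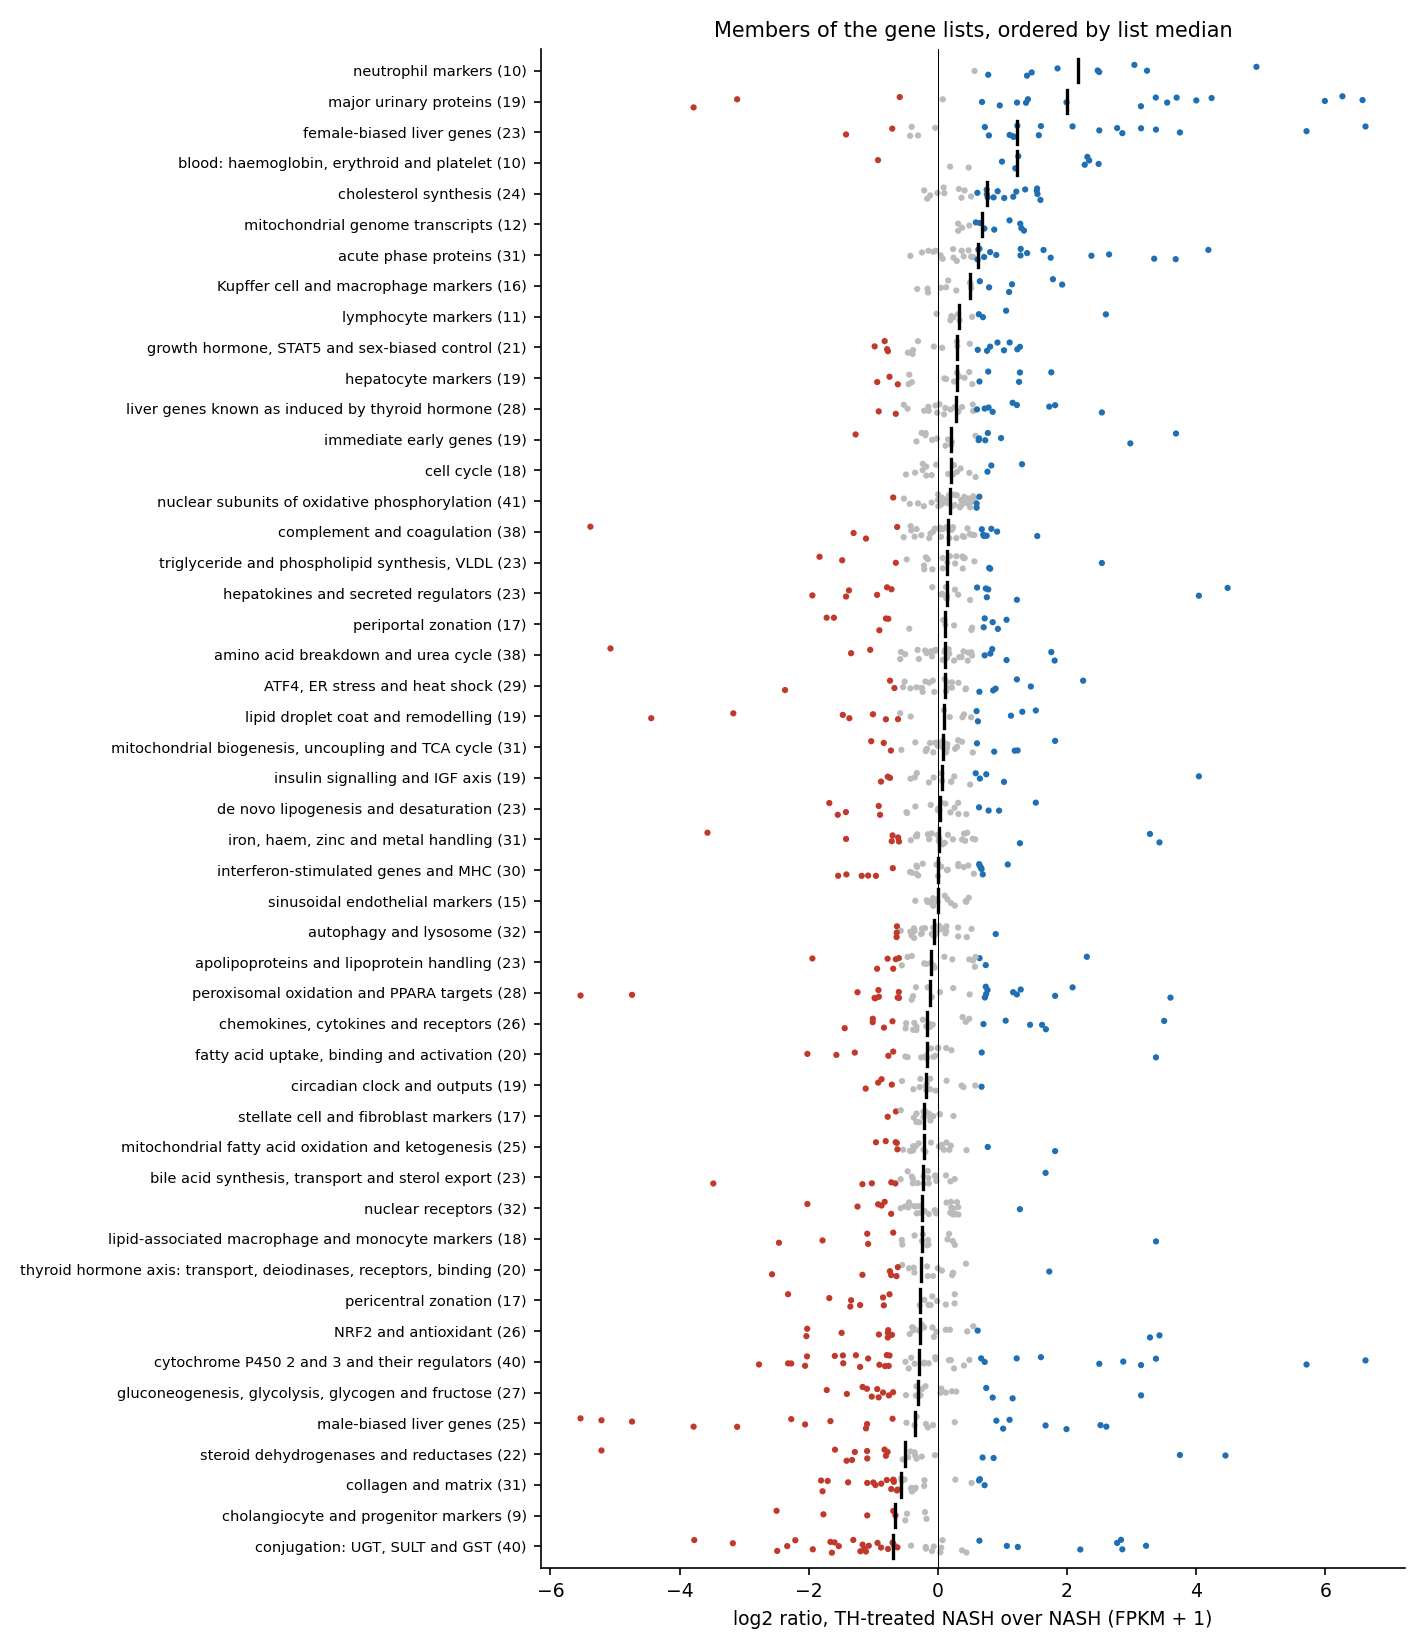
Log2 ratio of TH-treated NASH over NASH for each compared member (points) of the gene lists with at least 9 compared members, ordered by list median (black bars); blue points are at least 1.5-fold higher, red points at least 1.5-fold lower, and the number of compared members stands in brackets. Neutrophil markers, Mup genes, female-biased genes and cholesterol synthesis have medians on the higher side, and conjugation enzymes, cholangiocyte markers and matrix genes lie at the lower end, with conjugation lowest at −0.69.

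Lipid genes stood on both sides. In cholesterol synthesis, 14 of 24 compared members stood higher and 0 lower (median log2 ratio 0.76). Mvd, Idi1, Sqle and Cyp51, which act from mevalonate to sterol, stood at 12.1, 4.02 and 14.1 FPKM, 29.2, 2.46 and 9.07 FPKM, 20.7, 1.79 and 7.10 FPKM and 57.02, 11.3 and 34.6 FPKM. Only 2 of the 24 were flat, and in the 4 named the treated values lay above NASH and, except for Mvd, below control. Lipid droplet genes split, 5 of 19 higher, 7 lower, median log2 ratio 0.09, a median that turned to −0.42 among genes of at least 5 FPKM. Cidec and Cidea, which fuse droplets, stood at 6.70, 77.5 and 7.74 FPKM and 0.346, 43.5 and 1.05 FPKM; Cidea overlaps B430212C06Rik in the deposited positions. The droplet gene Plin4 stood at 2.58, 8.70 and 2.75 FPKM, but Plin2, the most abundant coat protein, stood at 339, 448 and 689 FPKM. For lipogenesis (4 of 23 higher, 5 lower, median log2 ratio 0.03), Srebf1, its insulin-driven regulator, stood at 55.5 FPKM in control against 125 in NASH and 38.4 with treatment, 3.26-fold lower (3.17 to 3.35). The lipogenesis median turned to −0.07 with equal FPKM totals. Elovl6, which lengthens palmitate, was flat at 19.5, 20.2 and 39.8 FPKM. Fatty acid uptake genes (2 of 20 higher, 5 lower, median log2 ratio −0.17) included Pparg, the adipogenic receptor, at 6.43, 10.5 and 1.84 FPKM and Cd36, a fatty acid translocase, at 12.05, 54.01 and 21.6 FPKM, while Fabp5, an epidermal-type binding protein, stood at 33.6, 8.91 and 102 FPKM.

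Fat oxidation genes stood on both sides. Of the mitochondrial list, 2 of 25 compared members stood higher and 5 lower (median log2 ratio −0.22), and Acadm, the medium-chain dehydrogenase, stood at 164, 191 and 97.7 FPKM. In the peroxisomal and PPARA target list, 10 of 28 compared members stood higher and 10 lower (median log2 ratio −0.13). Cyp4a14, a hydroxylase much induced through PPARA, stood at 76.6, 36.7 and 159 FPKM, and Cat, catalase, at 1035, 969 and 514 FPKM. Sugar metabolism had 4 of 27 higher, 10 lower, median log2 ratio −0.30: Pklr, liver pyruvate kinase, stood at 82.2, 152 and 45.4 FPKM. Apom, the carrier of sphingosine-1-phosphate on lipoproteins, stood at 199 FPKM in control against 75.9 in NASH and 379 with treatment, 4.997-fold higher (4.82 to 5.18), within a list of apolipoproteins with 3 of 23 higher, 6 lower, median log2 ratio −0.11. Abcc3, a basolateral bile salt exporter, stood at 36.2 FPKM in control against 58.9 in NASH and 4.38 with treatment, 13.5-fold lower (12.5 to 14.4), and the bile acid list had 1 of 23 higher, 5 lower, median log2 ratio −0.22.

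Sex-biased genes lay far from the background in both directions. Of the female-biased list, 17 of 23 compared members stood higher and 2 lower (median log2 ratio 1.23). The other 7 listed lay under 1 FPKM in NASH and TH-treated NASH. Members under 1 FPKM in NASH, such as Cyp3a44, were compared only because of their treated value and could stand only on the higher side. With no filter the median was 1.11. Of the male-biased list, 7 of 25 compared members stood higher and 11 lower (median log2 ratio −0.36). Hsd17b6, a male-biased steroid dehydrogenase, stood at 41.99 FPKM in control against 66.5 in NASH and 0.825 with treatment, 80.6-fold lower (59.9 to 111). Cyp2a4, a female-biased steroid hydroxylase with a near-identical copy, stood at 0.0640, 1.15 and 21.3 FPKM, and Cyp17a1, the steroid 17-hydroxylase, at 4.57, 14.5 and 207 FPKM. The male-biased list was not uniform: Moxd1 and Serpina1e, the latter with near copies, stood at 18.9, 0.441 and 7.25 FPKM and 6572, 431 and 2635 FPKM. Regulators of the bias differed as well. Cux2, a female-specific factor, stood at 0.0813, 0.0252 and 1.41 FPKM, Trim24 at 5.89, 6.47 and 15.1 FPKM and the oestrogen receptor Esr1 at 2.73, 2.16 and 6.63 FPKM, all flat and higher, whereas Bcl6, a male-biased repressor, stood at 6.83, 12.5 and 5.83 FPKM and the growth hormone receptor Ghr at 127, 131 and 75.8 FPKM. For Cux2, under 1 FPKM in both untreated libraries, flatness rests on the +1 in the ratio, and it was compared only because of its treated value. The Y-linked genes Ddx3y and Kdm5d stood at 13.4, 14.5 and 17.3 FPKM and 1.85, 2.18 and 1.41 FPKM.

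More drug-metabolising enzymes were lower than higher. In the CYP2 and CYP3 list, 10 of 40 compared members stood higher and 16 lower (median log2 ratio −0.29). Cyp2c44 stood at 152, 112 and 15.6 FPKM, Cyp2c29 at 236, 179 and 35.1 FPKM and Cyp1a2, the caffeine oxidase, at 208, 142 and 61.2 FPKM, in a family whose close copies can share fragments. In the conjugation list, 8 of 40 compared members stood higher and 22 lower (median log2 ratio −0.69). Of 13 compared alpha, mu and pi glutathione transferase genes, 11 were at least 1.5-fold lower and 0 higher, and their summed level was 4845 FPKM in control against 3491 in NASH and 1289.7 with treatment. Gstm1, the most abundant of the lower ones, stood at 999, 1550.2 and 276 FPKM. Gsta1 and Gsta2, near copies, stood at 4.15, 17.1 and 0.328 FPKM and 27.8, 19.7 and 1.29 FPKM. Steroid dehydrogenases and reductases had 4 of 22 higher, 10 lower, median log2 ratio −0.50, and the NRF2 and antioxidant list had 3 of 26 higher, 8 lower, median log2 ratio −0.28, with Nqo1, a quinone reductase and its usual readout, at 2.70, 7.71 and 2.10 FPKM. Metallothioneins Mt1 and Mt2, which bind zinc, were on the higher side at 347, 117 and 1152 FPKM and 128, 64.6 and 706 FPKM, and the zinc importer Slc39a4 on the lower side at 21.9, 16.8 and 0.505 FPKM.

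Transcripts of the mitochondrial genome were higher and their nuclear partners barely so. Of 12 compared mitochondrial genes, 8 were at least 1.5-fold higher and 0 lower, the median was 0.68 and the list summed to 35476 FPKM in control against 38860.1 in NASH and 53558 with treatment. Of 41 compared nuclear subunits of oxidative phosphorylation, all of them flat, 3 stood higher and 1 lower, and the median was 0.19. With equal FPKM totals the mitochondrial genome and nuclear medians were 0.577 and 0.077. After centring by gene length they were 0.528 and 0.073. Under both settings the mitochondrial genome median lay under the 1.5-fold line. Cox7a2 and Ndufa2, subunits of complexes IV and I, stood at 147, 144 and 225 FPKM and 140.3, 163 and 247 FPKM, and Sdha, of complex II, at 148, 172 and 106 FPKM. Cytosolic ribosomal protein genes, a family chosen after its values were seen, were higher almost throughout: 69 of 81 compared genes were at least 1.5-fold higher and 0 lower, the median was 0.81, and 73 of the 81 were flat. Their summed level was 20384 FPKM in control against 18697 in NASH and 32816 with treatment. Rps27a, which also encodes ubiquitin, stood at 232, 204 and 493 FPKM and Rpl41 at 361, 353 and 841 FPKM. Mitochondrial ribosomal proteins, also picked afterwards, had 3 of 76 higher, 0 lower and a median of 0.16. Ribosomal protein genes are short, with a median of 935 bases, and many have pseudogene copies. After centring by gene length the median of the cytosolic family was 0.68, the lowest of 5 other scalings. The part of length or library preparation in this difference was not tested beyond that centring.

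**Figure D4:**
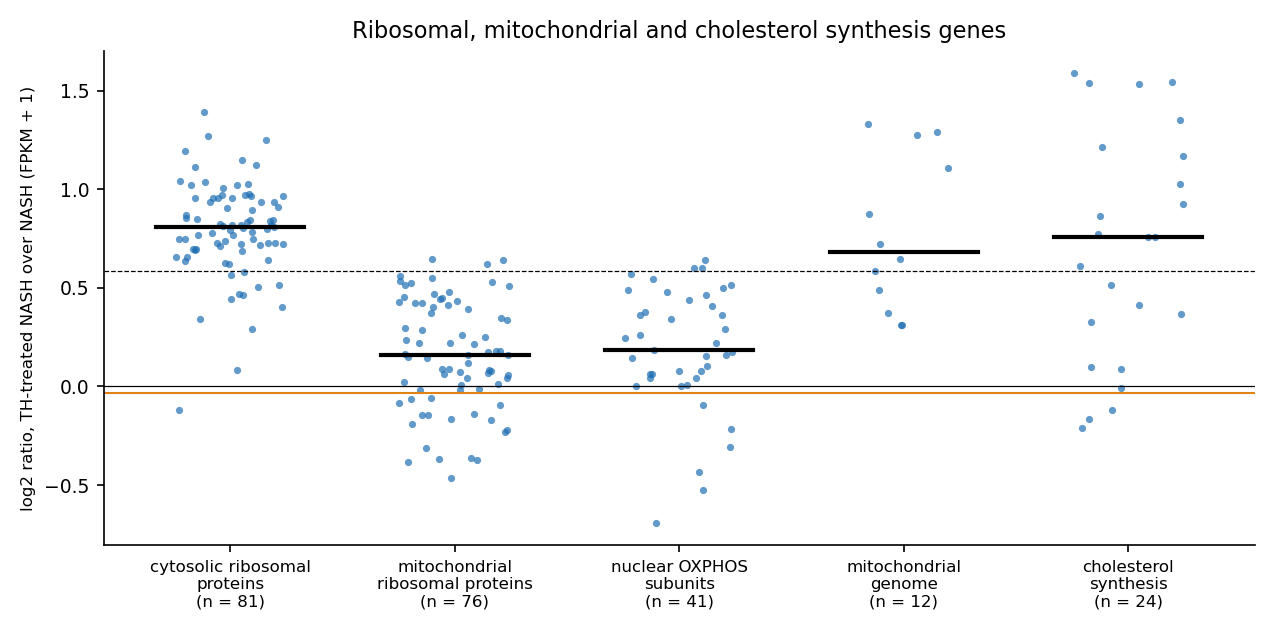
Log2 ratio of TH-treated NASH over NASH for each compared gene (points) of 5 families, with the family median as a black bar; the orange line is the median of all compared genes, −0.03, and the dashed line 1.5-fold higher. Cytosolic ribosomal proteins and mitochondrial genome transcripts have medians of 0.81 and 0.68, above those of mitochondrial ribosomal proteins (0.16) and nuclear subunits of oxidative phosphorylation (0.19), and cholesterol synthesis lies at 0.76.

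Acute phase proteins, which hepatocytes secrete in response to IL-6, were higher as a list: 16 of 31 compared members stood higher and 0 lower (median log2 ratio 0.61). That median lay under the 1.5-fold line in some alternatives, at 0.51 with equal FPKM totals and also after centring by gene length. Lcn2, an iron-siderophore scavenger, stood at 24.02 FPKM in control against 58.3 in NASH and 372 with treatment, 6.37-fold higher (6.15 to 6.60), and Orm2, an orosomucoid, at 33.6 FPKM in control against 52.2 in NASH and 682 with treatment, 13.1-fold higher (12.5 to 13.7). Only 4 of the 31 were flat. Among stress genes (6 of 29 higher, 3 lower, median log2 ratio 0.11), Asns, asparagine synthetase, stood at 6.22, 1.16 and 9.27 FPKM, and Hspb1, a small heat shock protein, at 100.1, 139 and 26.2 FPKM; that median turned to −0.06 at its lowest over the alternatives. Amino acid breakdown, whose median lay just under 0 with equal FPKM totals, had 6 of 38 higher, 3 lower, median log2 ratio 0.11. Tat, tyrosine aminotransferase, stood at 417, 264 and 894 FPKM, Got1, aspartate aminotransferase, at 104, 62.2 and 220.2 FPKM, and Sds, serine dehydratase, at 176, 164 and 343 FPKM. Ddah1, which degrades methylated arginine, stood at 36.1 FPKM in control against 47.2 in NASH and 0.437 with treatment, 108-fold lower (84.4 to 141). Immediate early genes had 7 of 19 higher, 1 lower, median log2 ratio 0.21: Gadd45g, a growth arrest gene, stood at 9.91, 7.55 and 109 FPKM and Egr1, a zinc finger factor of the early growth response, at 5.74, 2.45 and 26.2 FPKM.

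Matrix genes stood on the lower side more often than all compared genes. Of 31 compared, 15 were lower and 3 higher, and the median was −0.57. The other 12 listed matrix genes lay under 1 FPKM in NASH and TH-treated NASH. Members under 1 FPKM with treatment, such as Mmp13, were compared only because of their NASH value. The matrix median was −0.41 with no filter and ranged from −0.76 to −0.31 over the alternatives. Col1a1, Col1a2 and Col3a1, the fibrillar collagens of scar, stood at 1.31, 6.81 and 1.23 FPKM, 1.90, 8.24 and 2.52 FPKM and 4.51, 16.7 and 4.43 FPKM, with treated values near control. Markers of the cells that make matrix lay closer to 0, 0 of 17 higher, 2 lower, median log2 ratio −0.22. Cholangiocyte markers had 0 of 9 higher, 5 lower, median log2 ratio −0.66, Krt23 standing at 0.773, 5.87 and 0.217 FPKM and Krt8, a keratin of hepatocytes as well, at 153, 238 and 69.1 FPKM. The other 6 listed cholangiocyte markers lay under 1 FPKM in NASH and TH-treated NASH. The cholangiocyte median was −0.20 with no filter and −1.11 with a pseudocount of 0.1 FPKM. Antigen presentation genes H2-Aa, H2-Ab1 and H2-Eb1 stood at 20.3, 86.4 and 31.8 FPKM, 19.2, 80.5 and 34.97 FPKM and 15.9, 70.1 and 23.4 FPKM. Lipid-associated macrophage markers had 1 of 18 higher, 5 lower, median log2 ratio −0.24, with Gpnmb, a glycoprotein of lipid-laden macrophages, at 0.0289, 5.19 and 0.124 FPKM. Kupffer cell markers had 6 of 16 higher, 0 lower, median log2 ratio 0.50, among them Marco and Clec4f, receptors of resident macrophages, at 3.30, 22.3 and 79.2 FPKM and 33.8, 59.9 and 129.9 FPKM.

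Most markers of neutrophils and red blood cells were higher in the treated library. Neutrophil markers had 9 of 10 higher, 0 lower, median log2 ratio 2.16, and the 14 listed summed to 10.01 FPKM in control against 13.1 in NASH and 171 with treatment. With no filter that median was 1.42. The 4 listed markers not compared lay under 1 FPKM in NASH and TH-treated NASH. Retnlg (0.490 FPKM in NASH, 4.38 with treatment) was compared only because of its treated value. S100a8 and S100a9, calprotectin subunits of neutrophils, stood at 1.45, 3.42 and 40.7 FPKM and 2.89, 4.43 and 43.7 FPKM, and Prtn3, proteinase 3, at 4.04, 1.04 and 61.2 FPKM. The lymphocyte list had 4 of 11 higher, 0 lower, median log2 ratio 0.33. Only 2 of the 11 were at least 2-fold higher, and the other 9 listed lay under 1 FPKM in NASH and TH-treated NASH. The list summed to 47.6 FPKM in control against 82.4 in NASH and 230.4 with treatment. Ighm, the heavy chain of IgM, was flat at 13.8, 16.4 and 104 FPKM and made up most of the rise in that sum above NASH. Segments of immunoglobulin genes can share fragments. The 37 compared immunoglobulin genes stood on both sides, 14 at least 1.5-fold higher and 12 lower, with a median of 0.21. The blood list summed to 318 FPKM in control against 399 in NASH and 1774 with treatment. Several flat genes on the higher side belong to such cells, among them Ngp, Camp, Ltf and Mpo of neutrophils, and Rnase2a, an eosinophil ribonuclease, at 0, 0.0310 and 13.4 FPKM. Without genes of blood, neutrophils, lymphocytes and immunoglobulins, a setting added after seeing the data, 296 genes were at least 2-fold higher and 314 lower, and 120 and 87 of the flat genes. The part that blood or infiltrating cells had in the acute phase or Kupffer values was not tested.

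**Figure D5:**
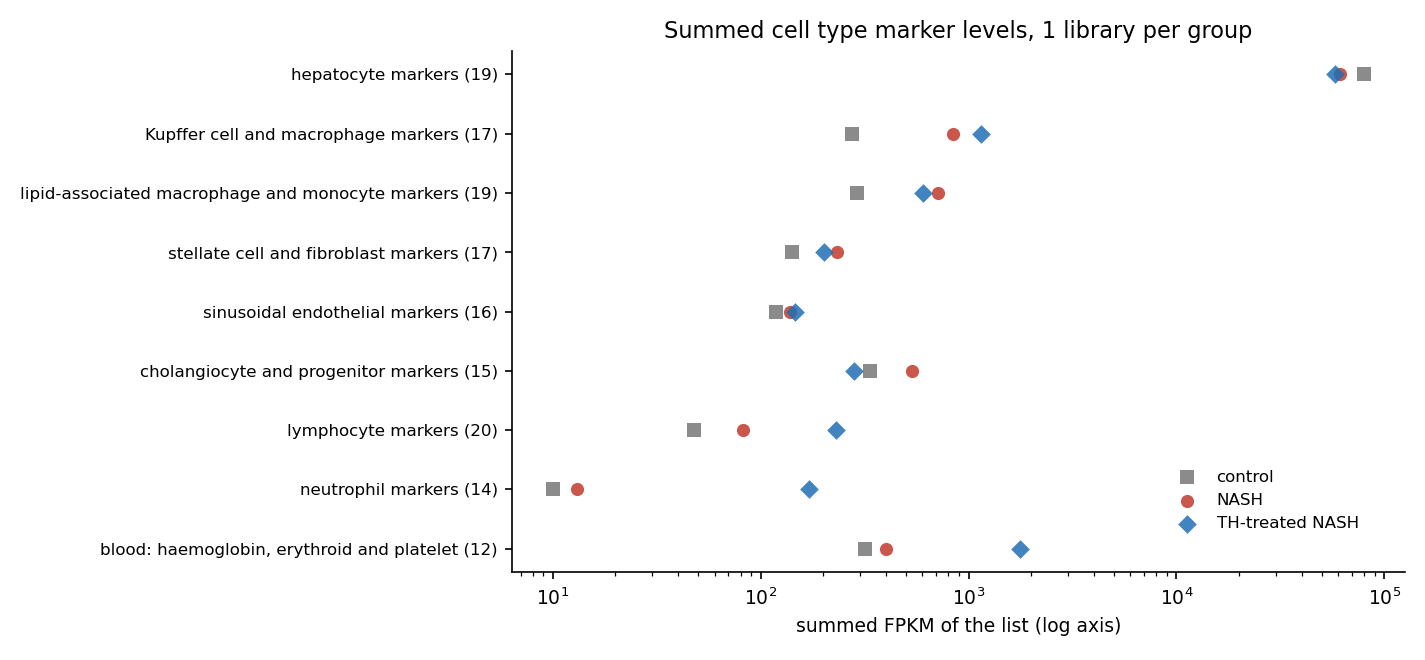
Summed FPKM of cell type marker lists on a log axis in control (grey squares), NASH (red circles) and TH-treated NASH (blue diamonds), 1 library per group and no error bars; the number of listed genes found stands in brackets. Neutrophil markers stand at 10.01, 13.1 and 171 FPKM, lymphocyte and blood markers show the same order, and sinusoidal endothelial and stellate markers lie close together in NASH and TH-treated NASH.

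Some genes past 2-fold were neighbours. Runs of 3 or more adjacent compared genes past 2-fold in 1 direction numbered 12, with 46 genes, 6 of them higher and 6 lower. The largest were a pair of 6-gene Mup runs on chromosome 4 (60066469 to 60501960 and 61224307 to 61519531), all higher. Next came 5 Gstm genes on chromosome 3 (107938847 to 108044894), all lower, with Gstm6 alone flat. On chromosome 19 the neighbours Cyp2c68, Cyp2c40 and Cyp2c69 were higher (39688834 to 39886769) while Cyp2c37, Cyp2c54 and Cyp2c50 nearby were lower (39992424 to 40113950). The carboxylesterases Ces1e, Ces1f and Ces1g on chromosome 8 and Gsta4, Gsta1 and Gsta2 on chromosome 9 were lower. Most runs are tandem copies that can share fragments, so their members are not independent. No source used here names the build of the deposited positions.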

How the data were processed

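Poly(A) RNA of whole liver was sequenced, 1 library per group. The authors deposited FPKM values per gene, and the submitters' processing notes name TopHat2 and HTSeq without their roles. Versions, strand mode and build are not given in sources used here. Within each library, FPKM times gene length fell on whole multiples of 1 fragment (100% of values above 0 within 0.01 fragment), which gave the fragments behind each value and a floor of 3 fragments for genes at 0. Log2 ratios used a pseudocount of 1 FPKM and genes at 1 FPKM or more in NASH or TH-treated NASH. Folds are ratios of FPKM with exact 95% intervals (conditional binomial, Clopper-Pearson). Intervals and floors cover counting error only, since fragments copied by PCR are not separate molecules.

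The 52 gene lists hold 1312 entries, 1306 of them found (13 through RefSeq synonyms). Members and lists were chosen with earlier results of these data known. Genes named come from the 15 top and 15 bottom log2 ratios, counting genes with a regular symbol that reach 5 FPKM in either library, the same among flat genes, the largest absolute ratios of each list (at most 6 genes), the 10 largest gains and losses in FPKM, genes next to each threshold, runs of 3 or more neighbours past 2-fold, and a few hormone, sex and diet genes; Cyp3a11, Fkbp5, Ghr, Gpcpd1, Ltf, Moxd1, Mpo, Papss2, Plin2, Plin5, Rpl41, Rps27a, Slc22a7, St3gal5 and Sult1a1 fall outside this rule and were chosen after their values were seen. Not every gene the rule names is reported. Promoters came from RefSeq (GRCm38.p6). Under 80% of the genes past 2-fold matched a promoter, so motif shares over gene sets were void and are not given. Thresholds, pseudocounts, scalings and filters were varied; leaving out blood and immune genes and centring by gene length were added after seeing the data. Recovery of fragments, intervals and calls was tested on simulated data. Python 3.11.15, numpy 2.4.6, scipy 1.17.1, Biopython 1.88 (alignments), pandas 2.3.3 and matplotlib 3.10.9 were used.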

Additional observations from a re-analysis of the deposited data

How the results depend on the processing

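With 1 library per group, no spread between animals can be set beside any value, and counting intervals give the precision that depth allows. No paired analysis was possible because each group is 1 library. The 320 higher and 325 lower genes became 538 and 611 with a pseudocount of 0.1 FPKM, 168 and 149 with 5 FPKM, 996 and 1060 at 1.5-fold, and 81 and 48 at 4-fold. The 133 higher and 88 lower flat genes became 81 and 43 with 5 FPKM, 514 and 398 at 1.5-fold, 32 and 7 at 4-fold, 73 and 48 with flat set at 1.1-fold, and 216 and 174 at 1.5-fold. Higher flat genes became 85 when flat was judged on FPKM without a pseudocount and 81 when 1 FPKM was required in control and NASH. Lower flat genes became 153 with 0.1 FPKM. The other counts stayed within 1.5 times. The median of all genes ranged from −0.13 with equal FPKM totals to 0.00 at 5 FPKM or more. Of 52 list medians, 41 kept their sign in every alternative run, and 24 of 665 alternative values crossed the 1.5-fold line or left it. The causes were not tested.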

Other observations

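Further gene groups are described here by the members at least 1.5-fold higher or lower, against the background of 8.49% and 9.03% of all compared genes. Circadian genes had 1 of 19 higher, 4 lower, median log2 ratio −0.18, with the clock repressor Nr1d1 at 34.2, 32.99 and 16.9 FPKM and its output Ciart at 4.52, 4.53 and 7.84 FPKM. The hour of sampling is not in the labels used here. Autophagy and lysosome genes had 1 of 32 higher, 3 lower, median log2 ratio −0.06, and Ulk1, the kinase that starts autophagy, stood at 20.9, 13.4 and 25.7 FPKM. The list of mitochondrial biogenesis, uncoupling and TCA cycle genes had 5 of 31 higher, 3 lower, median log2 ratio 0.08, and that of triglyceride and phospholipid synthesis 3 of 23 higher, 3 lower, median log2 ratio 0.15, with Mogat1, a monoacylglycerol acyltransferase, at 0.597, 7.10 and 1.28 FPKM. Interferon-stimulated and MHC genes had 6 of 30 higher, 6 lower, median log2 ratio 0.00, a median that changed sign under 4 alternatives, and chemokines and cytokines had 6 of 26 higher, 5 lower, median log2 ratio −0.16, a median of 0.15 among genes of at least 5 FPKM. Ccl2, which attracts monocytes, stood at 0.418, 3.73 and 0.738 FPKM, while Cxcl14, a chemokine of epithelia, stood at 1.48, 3.63 and 51.5 FPKM. Cell cycle genes had 3 of 18 higher, 0 lower, median log2 ratio 0.20 (−0.06 with no filter), with Cdkn1a, an inhibitor of the cycle, at 0.365, 6.34 and 17.1 FPKM and Ccnd1, cyclin D1, at 7.95, 23.3 and 40.4 FPKM.

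Genes of the pericentral zone of the liver lobule had 0 of 17 higher, 8 lower, median log2 ratio −0.28, those of the periportal zone 5 of 17 higher, 5 lower, median log2 ratio 0.12. Axin2, a readout of Wnt signalling around the central vein, stood at 1.52, 2.97 and 1.201 FPKM, and Oat, ornithine aminotransferase of that zone, which overlaps Fgfr2 in the deposited positions, at 275, 387 and 152 FPKM. Nuclear receptors had 1 of 32 higher, 6 lower, median log2 ratio −0.24, the growth hormone and STAT5 list 8 of 21 higher, 4 lower, median log2 ratio 0.30, complement and coagulation 7 of 38 higher, 4 lower, median log2 ratio 0.15, hepatokines 7 of 23 higher, 6 lower, median log2 ratio 0.14, metal handling 3 of 31 higher, 6 lower, median log2 ratio 0.02 (−0.07 with equal FPKM totals) and hepatocyte markers 5 of 19 higher, 3 lower, median log2 ratio 0.30. Enho, which encodes adropin and overlaps Dnaic1, stood at 30.03, 1.01 and 43.9 FPKM, and Inhbe, an activin subunit, at 24.7, 66.7 and 25.1 FPKM. Sinusoidal endothelial markers had 0 of 15 higher, 0 lower, median log2 ratio −0.00, and that median reached 0.12 after centring by gene length. Of blood genes, 7 of 10 compared members stood higher and 1 lower (median log2 ratio 1.22). Few markers of neighbouring tissues were compared. Of adipose genes, 1 of 7 compared members stood higher and 4 lower (median log2 ratio −0.69), and of pancreas, intestine and adrenal genes, 2 of 3 compared members stood higher and 1 lower (median log2 ratio 0.96), with the elastase Cela1 at 17.5, 10.8 and 56.9 FPKM. The part of neighbouring tissue in these values was not tested.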
